A study of Mus musculus with 69 samples.

Results

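The conjugation enzymes were taken as the genes of the count table whose symbols begin with Ugt1, Ugt2 or Ugt3, with Gst and the class letter a, k, m, o, p, t or z, or with Sult or Ces and a digit, pseudogenes marked -ps left out. There were 78 such genes among 24411, namely 20 UDP-glucuronosyltransferases (UGT), 21 glutathione transferases (GST), 19 sulfotransferases (SULT) and 18 carboxylesterases (CES). Of these, 75 passed the filter of at least 2 counts over all libraries, as did 21175 of all genes, and the 3 members left out were Sult2a2, Sult2a5 and Sult2a6. Of the 78, 29 averaged under 10 counts per library, and 49 could be followed at a useful depth.

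UGTs join a sugar, usually glucuronic acid, to drugs, bilirubin and steroids, GSTs join glutathione to reactive electrophiles, and SULTs transfer sulfate from the donor PAPS. Carboxylesterases cut ester and amide bonds of drugs and lipids and often act just before conjugation. In the kidney these enzymes are known above all from the proximal tubule, and in rodents many of them differ between males and females.

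The libraries came from kidneys of mice that carry a Rosa26 allele with Toxoplasma gondii Uprt behind a floxed stop, together with Hoxb7Cre (Hoxb7Cre;UPRTf/+), active in the collecting duct, or Atp6v1b1Cre (written Atp6b1v1Cre;UPRTf/+ in the labels), active in intercalated cells and cells that carry markers of both intercalated and principal cells. All mice, controls included, carried Cre and Uprt and were given 4-thiouracil, 430 mg/kg, with dissection 4 hours later. Uprt lets the targeted cells build the thiouracil into new RNA, which was then biotinylated and pulled down, while total kidney RNA came from control mice of both genotypes. Ischemia (iAKI) was a clamp of both renal pedicles for 10 minutes, studied 24 hours later, and volume depletion (vAKI) was 72 hours without water and food.

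At 5.5 months of age there were 4 male and 4 female control pulldowns of each driver, 4 male and 3 female Hoxb7Cre and 3 male and 3 female Atp6v1b1Cre pulldowns after ischemia, and 3 male and 4 female Hoxb7Cre and 4 male and 3 female Atp6v1b1Cre pulldowns after volume depletion. Total RNA came from 8 males and 8 females. Controls of 3 months added 2 female Hoxb7Cre and 3 male Atp6v1b1Cre pulldowns and 5 total RNA libraries. The libraries held 12618062 to 30305464 counts, with a median of 20868430. For the male pulldowns of the injury comparisons the study counts as many mice as there are libraries. For the controls the study's supplement gives 21 mice, as many as the total RNA libraries, without saying which library came from which mouse. For the female pulldowns after injury no source used here says that each was a separate mouse. There p-values measure the spread between libraries, which may be technical. Levels are given as CPM, read counts scaled to library size with TMM. A member was called changed at an adjusted p under 0.05 in edgeR's quasi-likelihood test over all 21175 genes and a change of 1 or more, up or down, on the log2 scale, and ± marks the standard error of a fold change or the SD of a level.

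The promoters of 5 members that carry the results are shown, each as the 250 bases before the RefSeq start site on its own strand in GRCm38.p6. Ugt1a1 and Ugt1a2 start at separate first exons of the Ugt1a locus, and both were lower in males, and Sult1d1 was the leading SULT of the kidney. Ugt2b37 and Ugt2b38 stood out for their male levels. Capitals in Ugt1a1 and Sult1d1 mark the letters of the HNF1 half-site (GTTAAT, or ATTAAC on the opposite strand), and capitals in Ugt2b37 and Ugt2b38 mark their longest shared run.
Ugt1a1, chr1:88211709-88211958, plus strand: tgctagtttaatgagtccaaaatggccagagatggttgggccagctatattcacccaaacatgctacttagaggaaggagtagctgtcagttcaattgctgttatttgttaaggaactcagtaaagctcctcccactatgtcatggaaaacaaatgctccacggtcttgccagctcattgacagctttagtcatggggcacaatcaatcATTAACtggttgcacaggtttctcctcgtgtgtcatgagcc
Ugt1a2, chr1:88200361-88200610, plus strand: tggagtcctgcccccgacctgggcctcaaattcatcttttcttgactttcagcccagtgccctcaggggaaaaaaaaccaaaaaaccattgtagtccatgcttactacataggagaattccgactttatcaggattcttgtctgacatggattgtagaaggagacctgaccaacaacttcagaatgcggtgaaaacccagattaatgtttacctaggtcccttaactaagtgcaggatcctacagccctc
Sult1d1, chr5:87569007-87569256, minus strand: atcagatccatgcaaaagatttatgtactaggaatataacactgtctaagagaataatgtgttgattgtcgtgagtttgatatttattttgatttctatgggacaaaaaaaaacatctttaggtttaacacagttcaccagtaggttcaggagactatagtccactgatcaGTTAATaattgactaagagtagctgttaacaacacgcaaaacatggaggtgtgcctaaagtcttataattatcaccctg
Ugt2b37, chr5:87254789-87255038, minus strand: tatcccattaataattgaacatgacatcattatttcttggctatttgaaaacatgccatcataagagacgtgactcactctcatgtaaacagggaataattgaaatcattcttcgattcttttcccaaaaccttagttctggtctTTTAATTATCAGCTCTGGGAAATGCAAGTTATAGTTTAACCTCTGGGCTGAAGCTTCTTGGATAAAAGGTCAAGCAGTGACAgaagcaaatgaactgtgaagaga
Ugt2b38, chr5:87424204-87424453, minus strand: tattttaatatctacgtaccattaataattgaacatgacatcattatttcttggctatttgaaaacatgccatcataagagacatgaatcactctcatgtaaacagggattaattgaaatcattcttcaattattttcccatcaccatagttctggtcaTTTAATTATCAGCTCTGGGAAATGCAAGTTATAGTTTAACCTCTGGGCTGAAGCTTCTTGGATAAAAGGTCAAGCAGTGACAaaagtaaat

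The half-site lay 41 to 36 bases before the start of Ugt1a1 and 79 to 74 bases before that of Sult1d1, and Ugt1a2 held none of the 4 motifs searched. The promoters of Ugt2b37 and Ugt2b38 matched at 222 of 236 aligned bases (94.1%) after a shift of 14 bases, with an identical run of 82 bases. Of the 78 members, 66 had a promoter in the RefSeq table. GTTAAT, on either strand, was present in 15 of them (22.7%) and in 6.52% of all 27025 promoters, most often in UGTs (6 of 18) and SULTs (6 of 15). Related and hardly detected genes count alike here. The SULTs with it include the relatives Sult2a3, Sult2a4, Sult2a5 and Sult2a6, and Sult2a5 and Sult2a6 failed the count filter. Sult2a4, Ces3b and Ces5a, which also held it, averaged 0.478, 0.087 and 0.058 counts per library. The antioxidant response core TGACNNNGC was in 3.03% of member promoters and 10.1% of all, the STAT element TTCNNNGAA in 6.06% and 7.18%, and the steroid receptor half-site AGAACA in 19.7% and 16.2%. AGAACA on the opposite strand reads TGTTCT and can share letters with TTCNNNGAA. Base composition was not matched between member promoters and all promoters, and GTTAAT is mostly A and T. The promoters printed above held 32.4% to 45.6% G and C. The motif counts describe letters in a window and say nothing of binding.

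Many members are close copies, which limits how reads could be assigned to them. Stretches of 50 bases shared with another gene were absent from 18 of the 78 members, made up over 10% of the transcript in 30 and over 50% in 13. They covered 97.0% of Ugt2a1, 90.5% of Gsta1, 63.7% of Ugt1a2, 58.2% of Ugt1a1, 54.3% of Gstp2, 49.8% of Gsta2, 37.4% of Ugt2b38 and 18.3% of Ugt2b37. Reads that align to several places or fall on shared exons are not counted by HTSeq at default settings, so the levels of these genes are uncertain. The Ugt1a genes share all exons but the first, and their counts come from what is particular to each. In GRCm38 the members lie on 12 chromosomes, with 19 on chromosome 8 and 13 on chromosome 5.

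In total kidney RNA a few members held most of each family. Levels were compared between genes per kilobase of exon not shared with another gene, over the 21 total RNA libraries. Ugt3a2 (chromosome 15, 9335550 to 9370955, plus strand), of the UGT3 group that uses sugars other than glucuronic acid, stood at 644 ± 194 RPKM, that is CPM per kilobase (SD, n = 21) and took 57% of the UGT counts. Sult1d1 (chromosome 5, 87554645 to 87569027, minus strand), known for sulfating catecholamines, stood at 530 ± 65.5 (SD, n = 21) and took 90.9% of the SULT counts. Gstm1, of the mu class, stood at 471 ± 67.7 and Gsta2, of the alpha class, at 247 ± 158 on the same scale (SD, n = 21). Ces1d, a lipid hydrolase, stood at 258 ± 70 and Ces1f at 218 ± 173, and Gstm5, Sult1c2, Sult1a1 and Ces2c followed within their families at 114, 40.6, 26.1 and 76.8. The large SDs went with sex: Ugt3a2 was at 821 in males and 450 in females, Ces1f at 375 and 45, and Ugt1a2 at 1.86 and 638, while Sult1d1 was at 530 and 531. Ugt3a2 thus stood first among UGTs in males and Ugt1a2 in females, and Ces1f first among CES in males and Ces1d, at 258 in both sexes, in females.

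Males and females were compared in total RNA of control mice of 5.5 months, 8 libraries each. The library numbers fall in separate series, and at this age the last series held only females. Series was not a covariate of the sex fits, so its part in these differences was not tested. Conjugation enzymes were called in 19 of 75 cases (25.3%), against 4.73% of all genes, 11 higher and 8 lower in males (2.01% and 2.72% of all genes). Their groups did not overlap for 15 members, where 8.2% of all genes did not overlap. By family, 5 UGTs, 5 CES and 1 SULT were higher in males, and 3 UGTs and 5 GSTs were higher in females. No GST was called higher in males and no CES higher in females. The median log2 fold change of the members was 0, as was that of all genes.

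Ugt1a2 was a female transcript in these kidneys. Its level ran from 447 to 935 CPM in the 8 females, with a median of 529, and from 1.14 to 3.07 CPM in the 8 males, with a median of 1.6. The groups lay far apart, with a log2 difference (male against female) of -8.32 ± 0.36 (adjusted p = 2.22e-18, edgeR). Ugt1a1, which conjugates bilirubin, was also lower in males, at 1.12 to 5.73 CPM with a median of 2 against 5.36 to 28.2 with a median of 11.4 in females (-2.27 ± 0.37, adjusted p = 2.20e-05, edgeR), and here the ranges overlapped by a little. Ugt2b34 was lower in males too, at -1.84 ± 0.34 (adjusted p = 0.000131, edgeR), with 19.6 to 48.3 CPM in males and 78.3 to 163 in females.

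Ugt2b37 and Ugt2b38, the pair with nearly the same promoter, were male transcripts. Ugt2b37 ran from 85 to 346 CPM in males, with a median of 189, and from 0.588 to 3.49 CPM in females, with a median of 1.47 (6.95 ± 0.38, adjusted p = 1.45e-15, edgeR). No female reached any male. Ugt2b38 had a median of 651 CPM in males and 29.3 CPM in females (4.76 ± 0.82, adjusted p = 5.11e-05, edgeR), with ranges of 2.94 to 1270 and 0 to 54. The groups overlapped because of 1 male library at 2.94 CPM, Total replicate 10, the other males being at 454 or more. Ugt2b5 (2.53 ± 0.39), Ugt2a3 (2.39 ± 0.59) and Ugt1a7c (1.62 ± 0.40) were also higher in males, with adjusted p of 9.43e-06, 0.00286 and 0.00333 (edgeR). The sexes overlapped for Ugt2a3 and Ugt1a7c. Ugt1a7c ran from 87.6 to 420 CPM in males and from 22.1 to 181 in females, those of the last series being at 22.1, 25.9 and 72.1. Ugt3a2, although the leading UGT over all libraries, missed the fold threshold, at 2370 to 2810 CPM in males and 1300 to 1490 in females (0.88 ± 0.13, adjusted p = 3.45e-06, edgeR), without overlap.

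Among the carboxylesterases, Ces1f (chromosome 8, 93256236 to 93279747, minus strand) stood at 923 to 1500 CPM in males, with a median of 1240, and at 116 to 183 CPM in females, with a median of 151. All males were above all females, at a log2 difference of 3.02 ± 0.20 (adjusted p = 1.87e-13, edgeR). Ces2c ran from 243 to 359 CPM in males and from 48.2 to 77.1 in females (2.18 ± 0.14, adjusted p = 5.15e-14, edgeR). The lower Ces1g (3.41 ± 0.39) and Ces2h (3.13 ± 0.34) were likewise higher in males without overlap (adjusted p = 4.44e-08 and 1.23e-08, edgeR). Ces1d, the other abundant member, did not pass the test, at 441 to 852 CPM in males and 387 to 940 in females (0.06 ± 0.29).

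The GSTs went the other way. Gsta4 (chromosome 9, 78182774 to 78209349, plus strand), which takes up the lipid peroxidation product 4-hydroxynonenal, ran from 29.4 to 41.1 CPM in males and from 135 to 317 CPM in females, with medians of 34.2 and 200. The groups did not overlap (-2.49 ± 0.19, adjusted p = 3.25e-12, edgeR). Gsta2 was at 55.6 to 211 CPM in males and 364 to 575 in females (-1.82 ± 0.27, adjusted p = 5.83e-06, edgeR). Gsto1 (-1.19 ± 0.11, adjusted p = 7.54e-10) and Gsto2 (-1.06 ± 0.24, adjusted p = 0.00125), both of the omega class, were lower in males (edgeR). Gstm1, the most abundant GST, ran from 530 to 706 CPM in males and from 635 to 770 in females (-0.20 ± 0.09, adjusted p = 0.122, edgeR). The leading SULTs were not called, Sult1d1 being at 0.06 ± 0.16 and Sult1c2 at 0.01 ± 0.17. Gstm3, Sult1e1 and Ces3a, chosen here after their values were seen, were also called but at no more than 14 counts in any of these libraries.

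**Figure D1:**
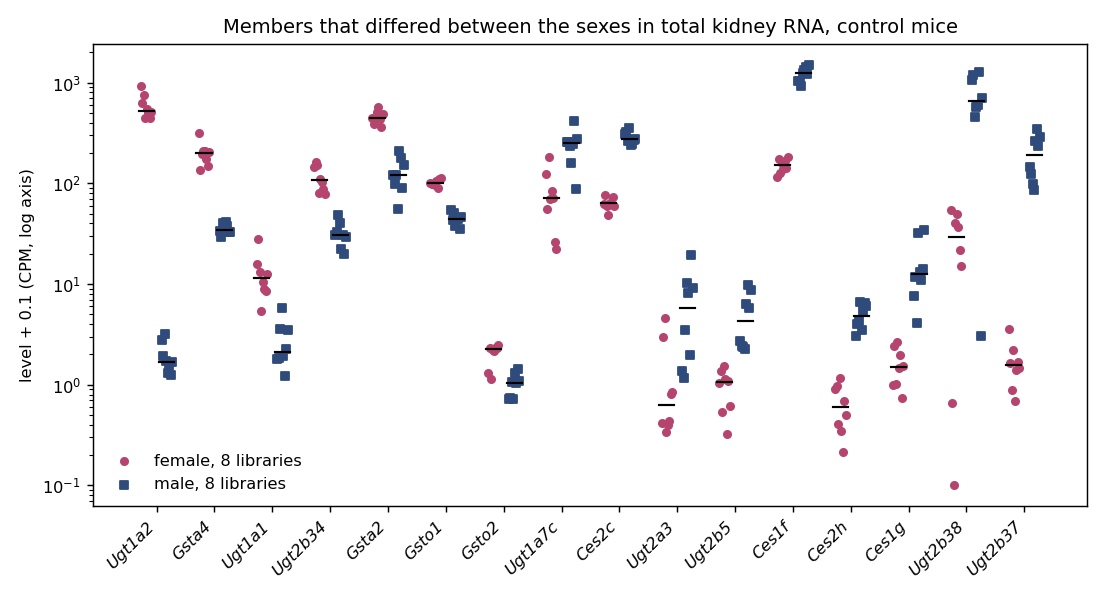
Levels (CPM plus 0.1, logarithmic axis) of the 16 members called between the sexes in total kidney RNA with a mean of at least 10 counts, each point 1 control library of 5.5 months (8 females, circles, and 8 males, squares) and each bar the median. Ugt1a2 and the alpha GSTs sit higher in females, and Ces1f, Ces2c and Ugt2b37 higher in males, with 1 male library of Ugt2b38 at 2.94 CPM.

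Summed over each family, total RNA held 4270 ± 516 CPM of UGT in males and 2620 ± 226 in females, and 2370 ± 204 CPM of CES in males and 974 ± 183 in females (SD, n = 8 each). For these 2 families no male library overlapped any female library. GST sums ran from 2160 to 2420 CPM in males and from 2680 to 3150 in females, again without overlap. SULT sums overlapped, at 1300 to 1750 and 1170 to 1750 CPM. Markers of the proximal tubule moved with sex as well: 3 of 13 were called higher in males, and their sum ran from 56200 to 87900 CPM in males and from 33500 to 42100 in females. The part of this in the sex differences was not tested. Of the supply genes, 2 of 7 for UDP-glucuronic acid and 2 of 18 for glutathione and mercapturate steps were higher in males and none lower. Of the rest, 1 of 10 other esterases was higher, 1 of 8 other glutathione transferases lower, and no gene was called among 9 tested for sulfate supply, 16 receptors and regulators and 8 NRF2 targets.

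Control pulldowns were set against total kidney RNA of control mice, 10 Hoxb7Cre, 11 Atp6v1b1Cre and 21 total RNA libraries with sex as a covariate. This sets RNA labelled over 4 hours in the targeted cells against the standing RNA of the whole kidney, so the cell that makes a transcript and the rate at which it turns over cannot be told apart. In the Hoxb7Cre pulldown 48 of 75 members were lower and 5 higher, against 17.9% and 14.6% of all genes, or 32.5% in either direction. In the Atp6v1b1Cre pulldown 49 were lower and 4 higher, against 16.4% and 11.3%, or 27.7% in either direction. The median log2 fold change was -1.67 for Hoxb7Cre and -1.75 for Atp6v1b1Cre, where the median of all genes was 0.11 in both. Both drivers were compared with the same total RNA libraries, so their agreement is not independent. In bulk RNA fewer cells of a type and less RNA per cell cannot be told apart.

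Of the 21 GSTs 19 were called in each pulldown, all lower. Over all members, 23 and 25 did not overlap, against 25.9% and 24.1% of all genes. Gstk1, a GST of mitochondria and peroxisomes, was at 66.8 to 96 CPM in the 21 total RNA libraries, at 5.27 to 8.83 CPM in the 10 Hoxb7Cre pulldowns and at 5.51 to 10.9 CPM in the 11 Atp6v1b1Cre pulldowns. Its log2 fold change was -3.50 ± 0.09 in Hoxb7Cre (adjusted p = 1.49e-33) and -3.43 ± 0.09 in Atp6v1b1Cre (adjusted p = 4.52e-34, edgeR). Gstm7 (-3.55 and -3.59), Gstt1 (-3.34 and -3.39) and Gstm5 (-3.29 and -3.44) had like values, and Gstm1 was lower by less (-2.35 and -2.51). Gstt3 (-1.02 and -1.27) and Gsta1 (-1.35 and -1.20) were lower by less. Gsto2 was the exception at useful depth, at -0.51 ± 0.20 and -0.52 ± 0.19, under the fold threshold.

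Of the CES, 12 were called lower in the Hoxb7Cre and 14 in the Atp6v1b1Cre pulldown, and none higher. Ces2e (chromosome 8, 104926260 to 104934672, plus strand) was at 9.99 to 25.3 CPM in total RNA, at 0.2 to 1.53 CPM in Hoxb7Cre and at 0.382 to 1.19 CPM in Atp6v1b1Cre. That was the largest fall of any member in Hoxb7Cre, -5.00 ± 0.22 (adjusted p = 1.12e-24), with -4.56 ± 0.20 in Atp6v1b1Cre (adjusted p = 1.46e-24, edgeR). Ces1g (-4.27 and -4.17), Ces2b (-3.74 and -4.21), Ces1f (-2.68 and -2.65), Ces2g (-2.51 and -3.25), Ces1d (-2.26 and -2.28) and Ces2h (-1.52 and -1.43) were also lower.

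The UGTs divided. The abundant Ugt3a2 was at 1280 to 2810 CPM in total RNA, at 50.8 to 210 CPM in Hoxb7Cre and at 56.6 to 213 CPM in Atp6v1b1Cre (-3.99 ± 0.13 and -3.99 ± 0.12, adjusted p = 7.42e-30 and 1.34e-30, edgeR). Ugt2b37 (-4.66 and -5.07), Ugt2b38 (-4.19 and -5.09), Ugt3a1 (-3.98 and -3.70) and Ugt2a3 (-3.67 and -3.30) lay as far below. Ugt1a6b was at -0.89 in Hoxb7Cre, not called, and at -1.56 in Atp6v1b1Cre.

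Ugt1a1 and Ugt1a5, from the same locus, did not fall. Ugt1a1 was at 0.14 ± 0.29 and 0.38 ± 0.30 (adjusted p = 0.701 and 0.273, edgeR), and Ugt1a5 was higher in the pulldowns, at 1.95 ± 0.31 (adjusted p = 2.59e-07) and 1.31 ± 0.32 (adjusted p = 0.000321, edgeR). Levels of Ugt1a5 were low, 0.043 to 0.692 CPM in total RNA, 0.609 to 2.22 in Hoxb7Cre and 0.146 to 1.77 in Atp6v1b1Cre, where the call was lost among females alone (1.00). Ugt1a2, at -3.38 ± 0.44 and -2.77 ± 0.46 over both sexes, was at -4.25 and -4.17 among females and at -0.71 and -0.75 (not called) among males, who had little of it in either RNA. Ugt2a1 and Ugt2a2, chosen here after their values were seen, were called higher in both pulldowns but had at most 15 counts in any of these libraries.

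The SULTs were closest to total RNA. Sult1d1 kept a high level, from 223 to 852 CPM in Hoxb7Cre and from 425 to 863 in Atp6v1b1Cre, against 1040 to 1640 CPM in total RNA, without overlap. Its fold change was -1.002 ± 0.13 in Hoxb7Cre, called at the edge of the threshold (adjusted p = 2.11e-09), and -0.84 ± 0.12 in Atp6v1b1Cre, not called (adjusted p = 4.58e-08, edgeR). The Hoxb7Cre call was lost when any of 11 of the 31 libraries was left out. Sult1c2 was lower in both, at -2.52 ± 0.15 and -2.48 ± 0.14 (adjusted p = 1.22e-19 and 4.86e-20, edgeR). Sult1a1, which sulfates phenols, was at -1.27 ± 0.10 (called) and -0.69 ± 0.10 (not called). Sult1b1 (-0.12 and 0.01) and Sult5a1 (-0.10 and 0.19) did not pass the test in either pulldown.

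**Figure D2:**
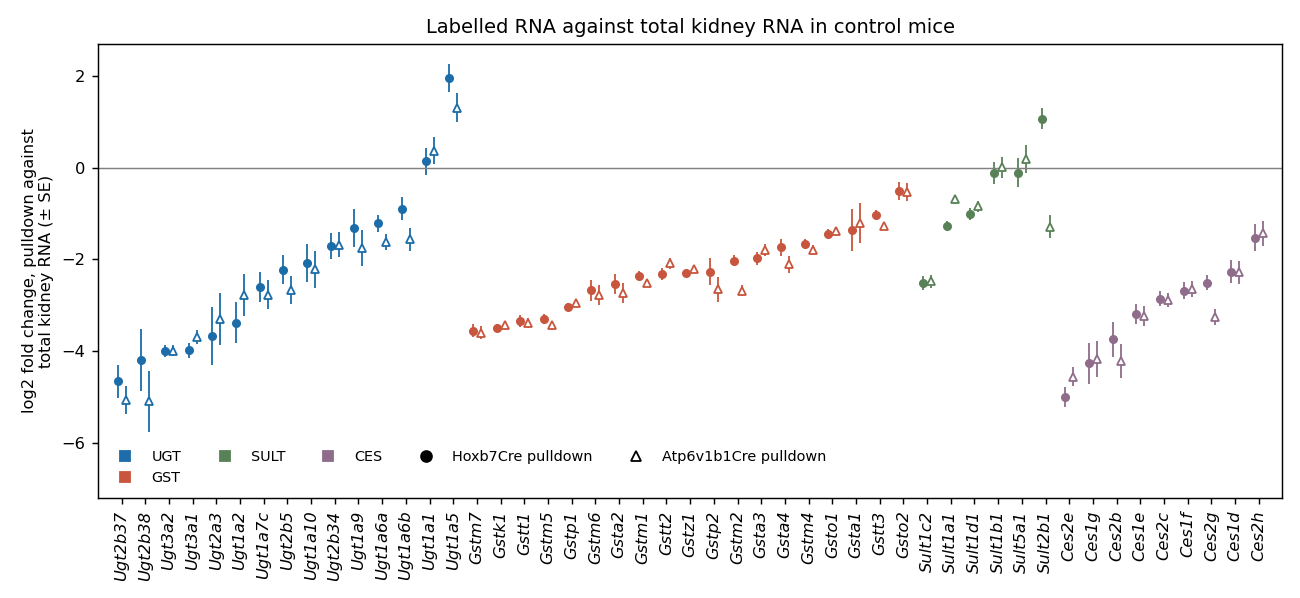
Log2 fold change of control pulldown against total kidney RNA (± SE, vertical axis) for the 49 members with a mean of at least 10 counts, grouped by family, with circles for Hoxb7Cre (10 libraries) and open triangles for Atp6v1b1Cre (11 libraries), both against 21 total RNA libraries. GSTs and CES lie below 0 throughout, while Ugt1a1, Ugt1a5, Sult1b1, Sult5a1 and, in Hoxb7Cre only, Sult2b1 lie near or above it.

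SULT also stood closest to total RNA by the sums of the families. Sult1d1 made up 90.9% of the SULT counts in total RNA, so this sum largely repeats the Sult1d1 result. In the pulldowns of control males UGT summed to 313 ± 48.6 CPM (Hoxb7Cre) and 275 ± 52.3 CPM (Atp6v1b1Cre), and CES to 301 ± 56.9 and 315 ± 65.1 (SD, n = 4 each). GST summed to 388 to 515 CPM and 397 to 492 CPM there. SULT kept 680 ± 91.6 and 654 ± 161 CPM there (SD, n = 4 each), against 1470 ± 148 in total RNA of males (SD, n = 8). Female pulldowns spread more widely, with SULT from 248 to 866 CPM in Hoxb7Cre. Proximal tubule markers were lower in the pulldowns too, 12 of 13 in each, with medians of -2.96 (Hoxb7Cre) and -2.95 (Atp6v1b1Cre), yet they were not at 0: their sum in control males was 5380 to 6990 CPM in Hoxb7Cre and 5840 to 7500 CPM in Atp6v1b1Cre. All 5 principal cell markers were higher in Hoxb7Cre, 1 of them in Atp6v1b1Cre, and 3 of 5 intercalated cell markers were higher in both. What share of the enzyme reads came from unlabelled proximal tubule RNA was not tested.

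**Figure D3:**
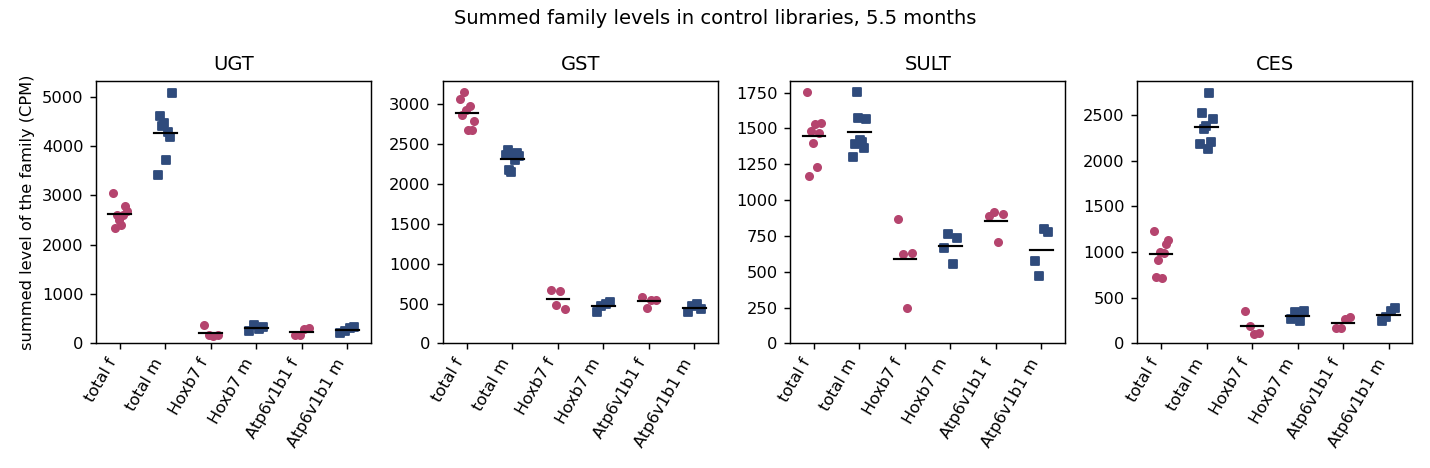
Summed level (CPM, linear axis from 0) of each family in control libraries of 5.5 months, each point 1 library (8 per sex for total RNA, 4 per sex for each pulldown) with bars at the mean. UGT, GST and CES sums drop well below total RNA in every pulldown library, and SULT sums drop less, to 248 to 916 CPM.

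Of the neighbouring pathways, glutathione supply and mercapturate genes were lower in 13 of 18 cases in Hoxb7Cre and 12 in Atp6v1b1Cre, with 2 and 1 higher. UDP-glucuronic acid supply was lower in 3 of 7 in both, sulfate supply in 4 and 3 of 9, other glutathione transferases in 4 and 3 of 8 (1 and 2 higher), and other esterases in 5 of 10 in both (1 and 0 higher). Receptors and regulators were not lower in any of 16 cases, with 1 and 3 higher and medians of 0.51 and 0.65. NRF2 targets had 1 of 8 higher and 1 lower in each.

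The Hoxb7Cre and Atp6v1b1Cre pulldowns of control mice differed at 5 of 75 members (6.67%), 2 higher and 3 lower in Atp6v1b1Cre, where 4.11% of all genes differed (2.58% higher, 1.53% lower). No member was without overlap, against 1.13% of all genes. At useful depth Sult2b1 alone was called. Sult2b1 (chromosome 7, 45729983 to 45784669, minus strand), which sulfates cholesterol and related sterols, was at 3.51, 4.54, 4.76 and 9.49 CPM in the 4 control males of Hoxb7Cre and at 0.194, 0.636, 0.737 and 0.921 CPM in those of Atp6v1b1Cre, with no overlap. Among females of 5.5 months the values were 1.19, 1.74, 2.06 and 3.29 CPM for Hoxb7Cre and 0.469, 0.73, 0.91 and 1.41 CPM for Atp6v1b1Cre, and here the ranges met. The log2 difference (Atp6v1b1Cre against Hoxb7Cre) was -2.35 ± 0.29 (adjusted p = 2.94e-08, edgeR), with -3.29 among males and -1.27 among females.

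Against total RNA, Sult2b1 was thus higher in Hoxb7Cre, 1.07 ± 0.23 (adjusted p = 7.21e-05), and lower in Atp6v1b1Cre, -1.28 ± 0.26 (adjusted p = 3.03e-05, edgeR). The Hoxb7Cre value was 1.97 among males and 0.14, not called, among females, fell to 0.85 against total RNA of the same genotype, and lost its call (0.77) without control replicate 3. Principal cell markers moved the same way, 4 of 5 lower in Atp6v1b1Cre than in Hoxb7Cre, and 3 of 5 macrophage markers were higher there. Their part was not tested. Macrophage markers summed to 47.1 to 52.2 CPM in control males of Hoxb7Cre and had a median of 127 CPM in those of Atp6v1b1Cre. A further 3 differences missed the fold threshold at adjusted p under 0.05: Gstm2 at -0.66 ± 0.13, Ces2g at -0.74 ± 0.19 and Sult1a1 at 0.58 ± 0.11. Sult2a3 and Sult2a4, higher, and Ces2a and Ces2f, lower, were chosen here after their values were seen and rest on at most 29 counts in any library.

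The sex difference was then followed into the pulldowns, as the mean of both drivers in control mice of 5.5 months, with 8 males and 8 females. There 15 of 75 members (20%) were called, 9 higher and 6 lower in males, against 2.3% of all genes (1.16% higher, 1.14% lower), and 9 did not overlap, against 1.13% of all genes. Ugt2b37 was at 3.1 to 10.4 CPM in males and 0 to 0.262 in females (6.21 ± 0.55, adjusted p = 4.29e-10, edgeR). Ces1f was at 77.8 to 177 CPM in males and 13.1 to 55.4 in females (2.08 ± 0.20, adjusted p = 1.83e-09, edgeR). For both genes every male library lay above every female one.

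Ugt2b38 (4.21 ± 0.90), Ugt2b5 (2.67 ± 0.49), Ces2h (2.61 ± 0.37), Ces1g (2.47 ± 0.59) and Ces2c (1.28 ± 0.14) were higher in males in the pulldowns as well. Ugt3a2 was now called, at 133 to 210 CPM in males, with a median of 177, against a median of 66.6 in females, without overlap (1.19 ± 0.13, adjusted p = 4.28e-08, edgeR). Lower in males were Ugt1a1 (-1.58 ± 0.36), Ugt2b34 (-1.48 ± 0.35) and Gsta2 (-1.31 ± 0.27). The proximal tubule list again had 3 of 13 markers higher in males.

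For 3 members (4%) the sex difference itself differed between pulldown and total RNA, against 0.406% of all genes. Ugt1a2 ran from 0.515 to 1.94 CPM in the 8 male pulldowns and from 17.2 to 63.5 in the 8 female ones, a log2 difference of -4.87 ± 0.33 where total RNA had -8.32, so that the change of the difference was 3.45 ± 0.46 (adjusted p = 2.00e-05, edgeR). Gsta4 had -1.35 ± 0.18 in pulldowns, with 9.34 to 21.2 CPM in males and 25.2 to 73.2 in females, and -2.49 in total RNA (1.14 ± 0.25, adjusted p = 0.0116, edgeR). Both were thus less skewed to females in the pulldowns.

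Ces2b went the other way. It was at 0.234 to 1.07 CPM in male and 0.493 to 5.49 in female pulldowns (-1.76 ± 0.44, adjusted p = 0.00962), overlapping, but at 10 to 28.6 and 7.4 to 23.7 CPM in total RNA (0.36 ± 0.33, adjusted p = 0.469). The change of the difference was -2.12 ± 0.55 (adjusted p = 0.0369, edgeR), and it lost its call when any of 17 of the 32 libraries was left out.

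**Figure D4:**
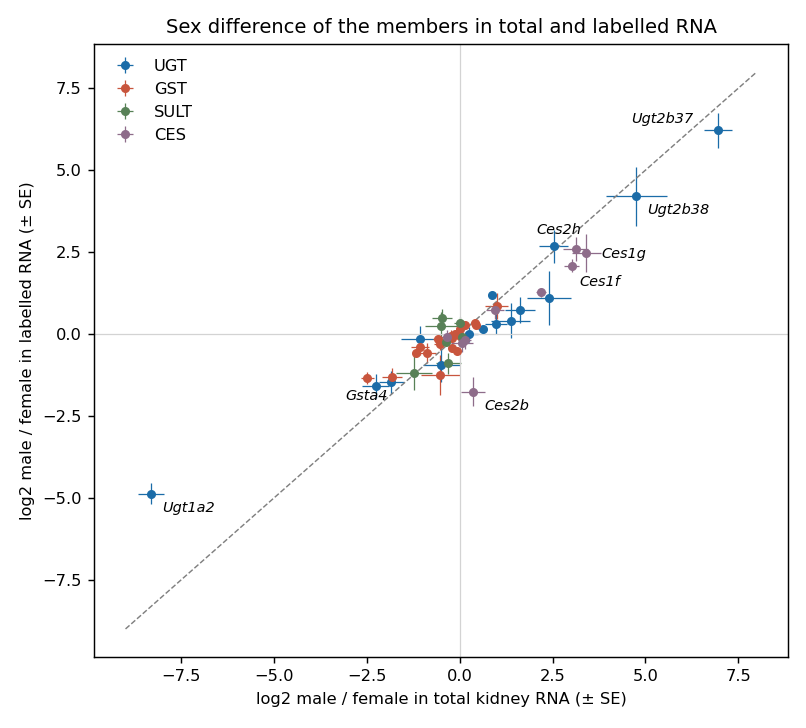
Log2 male against female difference of the 50 members with a mean of at least 10 counts, in total kidney RNA (horizontal axis) and in pulldowns as the mean of both drivers (vertical axis), ± SE, with the dashed line marking equal differences. Ugt1a2 lies above the line at -8.32 and -4.87, and Ces2b below it at 0.36 and -1.76.

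After ischemia and volume depletion the pulldowns of males of 5.5 months were compared with control pulldowns of the same driver, to see whether the enzymes respond by stimulus and by cell. Both stimuli share their controls. In Hoxb7Cre, ischemia changed 2 of 75 members (2.67%, against 2.3% of all genes) and volume depletion 7 (9.33%, against 16.4%). In Atp6v1b1Cre, ischemia changed 8 (10.7%, against 2.82%) and volume depletion 5 (6.67%, against 5.15%). Members without overlap numbered 10, 15, 11 and 10 in that order, where 15.9%, 39.5%, 20.6% and 14.5% of all genes did not overlap. The medians of the members were 0, 0, 0 and -0.14 and those of all genes 0. These medians lie over families that went different ways, most of their members not called: after ischemia in Atp6v1b1Cre 15 of 20 UGTs had a negative and 17 of 21 GSTs a positive fold change (medians -0.375 and 0.274), and after volume depletion in Hoxb7Cre 16 of 21 GSTs had a positive one (median 0.303).

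Ces2e rose after ischemia in both pulldowns. In Hoxb7Cre it was at 0.296, 0.463, 0.515 and 0.727 CPM in controls and at 1.55, 1.59, 2.26 and 2.57 CPM after ischemia. Every ischemic library was above every control (2.00 ± 0.33, adjusted p = 0.00149, edgeR). In Atp6v1b1Cre it was at 0.382, 0.804, 0.837 and 1.07 CPM in controls and at 1.16, 2.04 and 2.22 CPM after ischemia (1.22 ± 0.33, adjusted p = 0.023, edgeR), also without overlap. The call in Atp6v1b1Cre was lost without ischemia replicate 1 or 5 or control replicate 10. Females had 0.53 and 1.06, not called. These levels remained far under the 18.6 to 25.3 CPM of total RNA of control males.

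Sult2b1 fell after ischemia in Hoxb7Cre, from 3.51, 4.54, 4.76 and 9.49 CPM to 1.34, 1.46, 1.99 and 2.37 CPM (-1.63 ± 0.35, adjusted p = 0.00776, edgeR), without overlap. Females went the other way at 0.62, not called, and both sexes gave -0.71 (adjusted p = 0.261, edgeR). Principal cell markers fell with it, 3 of 5, their sum going from 2610 to 3320 CPM in controls to 936 to 1180 CPM after ischemia. Fat cell markers fell as well, 5 of 9, from 118 to 258 CPM to 50.8 to 100. Neither was tested as part of the change.

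In Atp6v1b1Cre ischemia changed 8 members, 4 higher and 4 lower, where 1.14% of all genes were higher and 1.68% lower. Gsta1, an alpha GST, was at 0.127, 0.194, 0.569 and 0.628 CPM in controls and at 1.19, 3.42 and 3.91 CPM after ischemia (2.84 ± 0.71, adjusted p = 0.016, edgeR). Gstm1, the most abundant GST, was at 88.8, 98.5, 112 and 117 CPM and then at 259 and 322 in 2 of the 3 ischemic libraries (1.12 ± 0.28, adjusted p = 0.0145, edgeR). The ischemic libraries were all higher for Gsta1, while 1 of 3 stayed within the controls for Gstm1. That library was the only ischemic male of the later series and also had the lowest ischemic value of Gsta1. The Gstm1 values of 259 and 322 came from the first series. In females, ischemic libraries of the first series lay above all Gstm1 controls, and that of the later series below them. The male Gstm1 call was kept with the library series as a covariate. Among females Gsta1 was at 2.08 and Gstm1 at 0.34, neither called, and with both sexes Gstm1 (0.79) fell under the fold threshold.

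The 4 members that went down were UGTs, a theta GST and a carboxylesterase. Ugt3a2 fell from 133, 145, 179 and 190 CPM to 54.1, 63.8 and 98.3 (-1.18 ± 0.22, adjusted p = 0.00233, edgeR). Ces1e fell from 9.61, 9.88, 18 and 20.6 CPM to 1.6, 5.73 and 6.88 (-1.62 ± 0.38, adjusted p = 0.0116, edgeR). Ugt2b37 (-1.52 ± 0.45, adjusted p = 0.0377) and Gstt2 (-1.05 ± 0.25, adjusted p = 0.0116) fell too, edgeR, and none of the 4 overlapped. Among females Ugt2b37 went the other way (1.14), and Ugt3a2 (-0.55), Ces1e (-0.74) and Gstt2 (-1.02) were not called. With both sexes Ces1e and Gstt2 were called, and Ugt2b37 (-1.08, adjusted p = 0.0956, edgeR) and Ugt3a2 (-0.88) were not. For none of the 7 members named here for ischemia in Atp6v1b1Cre, Ces2e included, did the response pass the test of a difference from Hoxb7Cre (adjusted p from 0.252 for Gstm1 to 0.675 for Gsta1, edgeR). Proximal tubule markers were lower beside them, 5 of 13, with sums of 5840 to 7500 CPM in controls and 3070 to 4850 CPM after ischemia, and the part of this was not tested. Without ischemia replicate 1, which leaves 2 ischemic libraries, 2 members were called in place of 8, while the fold changes stayed close: Gsta1 at 2.56, Gstm1 at 1.05, Ugt2b37 at -1.54 and Gstt2 at -1.05, none of these 4 called. Without ischemia replicate 5 there were 5 calls. Sult6b1, chosen here after its values were seen, was called higher with at most 32 counts.

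After volume depletion Ugt1a1 rose in Hoxb7Cre. It was at 1.55, 1.73, 2.91 and 3.62 CPM in controls and at 12.5, 13.4 and 14.6 CPM after volume depletion, while ischemia left it at 2.67 to 4.94. The depleted libraries lay together above all controls (2.46 ± 0.53, adjusted p = 0.000848, edgeR). Control females already stood at 6.99, 13, 17 and 18.9 CPM, and depleted females at 12.2 to 15.9, so that the female value was -0.06, and with both sexes the value was 0.98 (adjusted p = 0.107, edgeR). In Atp6v1b1Cre the 4 depleted males spread from 1.28 to 16.9 CPM around controls of 2.76 to 9.39. This spread went with the library series. Depleted males of the first series were at 8.59 and 16.9 CPM and those of a later series at 1.28 and 3.53. Controls of the same series were at 3.89 and 9.39 and at 2.76 and 6.46.

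Ugt1a2 rose with it, from 0.515 to 1.94 CPM to 2.14, 2.57 and 3.98 (1.51 ± 0.53, adjusted p = 0.0286, edgeR), a call lost with the library series as a covariate (1.18, adjusted p = 0.0665) and without depletion replicate 4 or control replicate 3 or 5. Gstt2, of the theta class, went from 30.5, 31.8, 56 and 68.4 CPM to 80.5, 89.6 and 135 (1.12 ± 0.24, adjusted p = 0.00077, edgeR). Gsta2 went from 17.9 to 45.8 CPM to 46.1, 56.6 and 99.5 (1.21 ± 0.40, adjusted p = 0.0198, edgeR). Ces2g fell from 1.33 to 1.92 CPM to 0.507, 0.654 and 1.03 (-1.20 ± 0.33, adjusted p = 0.00683, edgeR). None of the 4 overlapped. The GST calls were lost without control replicate 2 or 3 or depletion replicate 7, and that of Ces2g without depletion replicate 6. Among females Gstt2 was at 0.01, Gsta2 at 0.28 and Ces2g at -0.08, and with both sexes all 3 missed the test (0.57, 0.75 and -0.51, adjusted p = 0.0786, 0.0963 and 0.121, edgeR). Ugt1a2 was at 1.47 among females, not called, and was called with both sexes (1.48). Without control replicate 3 there were 3 calls in place of 7.

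Beside these, the glutathione supply list had 5 of 18 genes higher and none lower after volume depletion in Hoxb7Cre (median 0.64), and the NRF2 targets 3 of 8 higher (median 0.96). The lists share Gclc, Gclm and Slc7a11. No such gene was called after ischemia in Hoxb7Cre, and in Atp6v1b1Cre 3 of 18 glutathione supply genes were lower after ischemia and 1 higher after volume depletion. Receptors and regulators were called in 2 of 16 cases after ischemia in Atp6v1b1Cre, both lower, and in none of the other 3 comparisons. UDP-glucuronic acid supply had 1 of 7 genes lower after volume depletion in each driver, and sulfate supply 1 of 9 lower in Hoxb7Cre. Other glutathione transferases had 1 lower after each stimulus in Hoxb7Cre and 1 higher after ischemia in Atp6v1b1Cre, and other esterases 2 and 1 lower in Hoxb7Cre. Principal cell markers were lower in 4 of 5 cases after volume depletion in Hoxb7Cre, 4 of 9 fat cell markers were lower and 1 of 13 proximal tubule markers was higher. Markers of the thick ascending limb (3 of 4), distal convoluted tubule (2 of 3) and intercalated cells (3 of 5) were lower as well, and the part of any of these was not tested. Ugt2a1 and Ces2a, chosen here after their values were seen, were called lower with at most 7 counts.

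In Atp6v1b1Cre volume depletion raised Ces2b. It was at 0.339, 0.368, 0.629 and 0.796 CPM in controls and at 0.828, 1.66, 4.46 and 10.5 CPM after depletion, all above the controls but far apart (3.06 ± 0.61, adjusted p = 0.00212, edgeR). Females gave 0.635, 0.694, 2.06 and 2.47 CPM in controls and 7.57, 10.6 and 13.3 after depletion, again without overlap (2.85, adjusted p = 0.0237, edgeR). Sult2b1 rose from 0.194 to 0.921 CPM to 1.44, 1.52, 2.6 and 2.62 CPM (1.68 ± 0.39, adjusted p = 0.0057, edgeR), and was at 1.31 in females (adjusted p = 0.0456, edgeR). Both were thus called in males and in females.

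Gsta3, Ces1f and Ces1g fell. Gsta3 went from 34.6, 42.3, 49.8 and 57.6 CPM to 10.4, 12.1, 22.7 and 29 (-1.28 ± 0.32, adjusted p = 0.0104, edgeR). Libraries of the first series held the higher Gsta3 values, 49.8 and 57.6 in controls and 22.7 and 29 after depletion. Ces1f, with a median of 148 CPM and a highest value of 177 in the 4 controls, went to 42.6, 46.6, 62 and 63.1 (-1.46 ± 0.27, adjusted p = 0.00111, edgeR). Ces1g went from 0.293 to 1.21 CPM to 0.0352 to 0.133, with 4 counts or fewer per library after depletion (-3.36 ± 0.85, adjusted p = 0.0107, edgeR). None overlapped, and all 3 kept their call whichever library was left out. Ces1f was already low in control females, at 23.6 to 37.7 CPM, and stood at 22.9 to 25.6 after depletion (-0.41, not called). Proximal tubule markers were lower in 3 of 13 cases, with sums of 3440 to 6930 CPM, and lower too were 2 of 9 fat cell, 3 of 3 distal convoluted tubule and 2 of 5 intercalated cell markers. Their part was not tested.

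**Figure D5:**
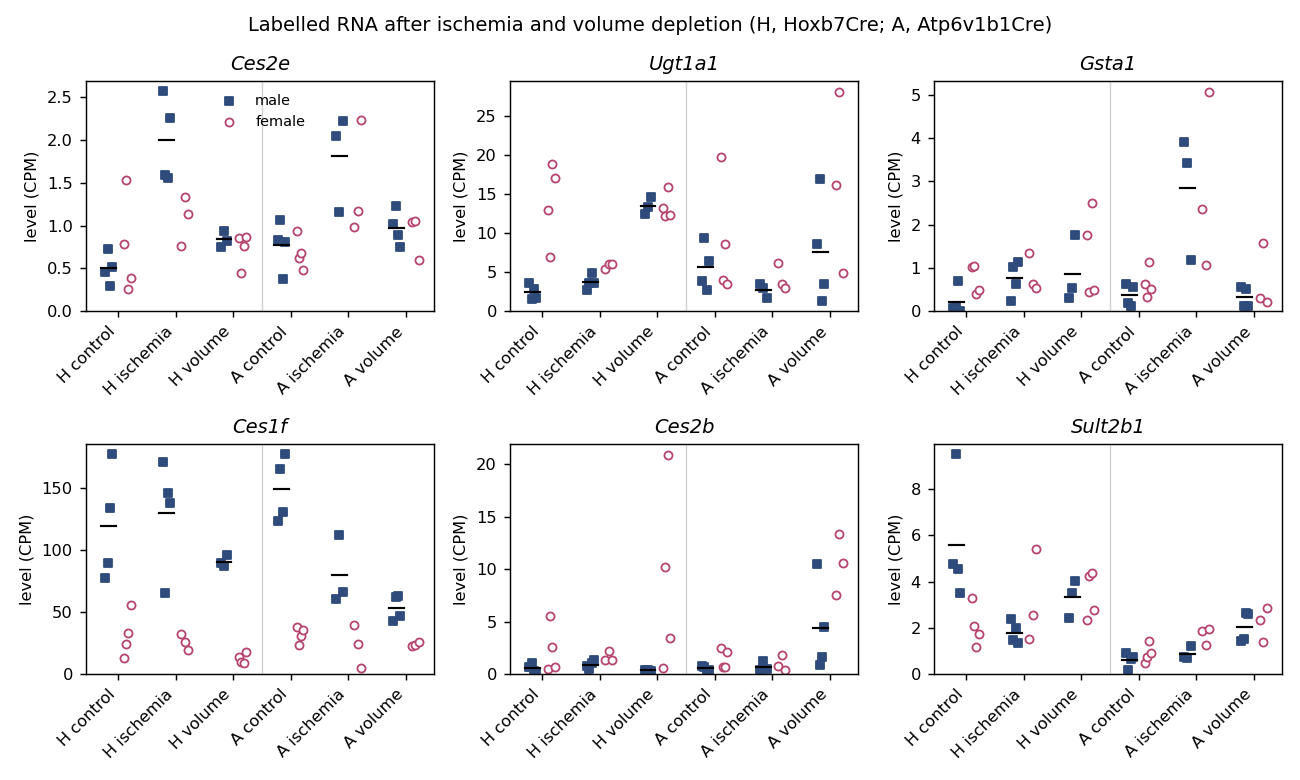
Levels (CPM, linear axis from 0) of 6 members in the pulldowns of control, ischemic and volume depleted mice of 5.5 months, each point 1 library (filled squares males, open circles females, 3 or 4 of each per group) and each bar the male mean. Ces2e is higher in ischemic males of both drivers, Ugt1a1 reaches 12.5 to 14.6 CPM in volume depleted Hoxb7Cre males, near the female controls, and Ces2b and Sult2b1 are higher in volume depleted Atp6v1b1Cre mice of both sexes.

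Ischemia and volume depletion were also compared directly. In Hoxb7Cre 10 members differed (13.3%, against 14.7% of all genes), and 21 did not overlap, against 42.9%. Higher after ischemia were Ces1g (2.5 ± 0.73), Ces2g (1.33 ± 0.33), Sult1b1 (1.29 ± 0.49) and Ces2e (1.25 ± 0.34), and higher after volume depletion were Ugt1a1 (-1.86 ± 0.51), Gsta2 (-1.72 ± 0.40), Gstt2 (-1.64 ± 0.24), Ugt1a5 (-1.43 ± 0.50), Gsto2 (-1.22 ± 0.34) and Gstt3 (-1.04 ± 0.17). Among females Sult1b1 (-0.23) and Gstt3 (0.06) went the other way, not called. Gstt2 had the smallest adjusted p, 2.07e-05 (edgeR), with 25.7, 30.5, 34.3 and 39.3 CPM after ischemia and 80.5, 89.6 and 135 after volume depletion. The call of Ces1g was lost without ischemia replicate 7, which stood at 4.01 CPM where the other 3 had 0.689 to 1.21.

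In Atp6v1b1Cre 18 members differed (24%, against 11.6% of all genes), 12 higher and 6 lower after ischemia (4.39% and 7.16% of all genes), and 13 did not overlap, against 29.6%. Of these, 7 higher and 1 lower were GSTs. Gsta1 (3.06 ± 0.73), Gstp2 (1.79 ± 0.53), Gsta2 (1.38 ± 0.40), Gsta3 (1.38 ± 0.34), Gstm4 (1.28 ± 0.25), Gstp1 (1.24 ± 0.23) and Gstm1 (1.04 ± 0.28) were higher after ischemia, and Gstt2 (-1.17 ± 0.25) after volume depletion. Among females Gsta2 (-0.46) and Gstm1 (-0.16) went the other way, not called, Gsta3 (1.12) and Gstt2 (-2.01) were called and the other 4 were not, and with both sexes Gsta2 was at 0.57 (adjusted p = 0.163, edgeR). Gstp1 was at 16.2, 22.4 and 26.2 CPM after ischemia and at 8.1, 8.58, 9.09 and 10.2 after volume depletion (adjusted p = 0.000358, edgeR), a clean separation. Gstm4 was at 5.29, 9.9 and 12.1 CPM against 3.41, 3.52, 3.73 and 4.05 (adjusted p = 0.000672, edgeR).

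Outside the GSTs, Ces1g was higher after ischemia (2.78 ± 0.92), and Ces2b (-2.67 ± 0.66), Ugt3a1 (-1.71 ± 0.33), Ugt2b37 (-1.51 ± 0.45), Ugt1a1 (-1.51 ± 0.54) and Sult2b1 (-1.21 ± 0.41) were higher after volume depletion. Among females Ugt2b37 went the other way (0.29, not called). Sult1e1, Sult2a3, Sult2a4 and Sult6b1, chosen here after their values were seen, were called with at most 58 counts. Without ischemia replicate 1, 10 of the 75 members were called. Fat cell markers differed as well, 6 of 9 higher after ischemia (172 to 366 CPM against 85.8 to 98.7), and 6 of 13 proximal tubule markers were lower with 1 higher. Their part was not tested.

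The responses of the drivers were set against each other by the difference of their fold changes. After ischemia 3 members (4%) responded differently, against 3.49% of all genes. Gstm2 was at 14.8, 16.1, 18.9 and 22.9 CPM in Hoxb7Cre controls and 8.22, 10.8, 10.9 and 12.1 after ischemia, but at 7.79, 7.91, 8.57 and 9.54 in Atp6v1b1Cre controls and 10.5, 11.8 and 13.3 after ischemia. The difference of the log2 fold changes was 1.25 ± 0.22 (adjusted p = 0.00335, edgeR), and it kept its call in each of the 15 fits without 1 library. Gstm4 (1.32 ± 0.35, adjusted p = 0.0233) and Sult2b1 (2.10 ± 0.55, adjusted p = 0.0228) had the same sign (edgeR). Sult2b1 lost its call without Hoxb7Cre control replicate 3 or Atp6v1b1Cre ischemia replicate 5, and Gstm4 without any 1 of 4 libraries. Principal cell markers (4 of 5) and fat cell markers (7 of 9) also responded differently, and their part was not tested.

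After volume depletion 2 members (2.67%) responded differently, against 2.93% of all genes. Sult2b1 gave 2.41 ± 0.53 (adjusted p = 0.0106) and Ces2b 3.63 ± 0.98 (adjusted p = 0.0347, edgeR). Principal cell markers moved the same way, 3 of 5 called with a median of 1.89, and their part was not tested. Hoxb7Cre males had 0.288, 0.398 and 0.403 CPM of Ces2b after depletion, within the 0.234 to 1.07 CPM of their controls. Hoxb7Cre females spread after depletion, at 0.535, 3.44, 10.2 and 20.9 CPM. The call of Sult2b1 held in all 15 fits without 1 library, and that of Ces2b in 6. Among females none of these differences was called (Sult2b1 0.30 and 0.58, Gstm4 0.67, Gstm2 -0.16, Ces2b 0.92). Whether the sexes differ in their response to injury was not tested. All Hoxb7Cre libraries after injury carry library numbers of the first series, as do 2 of the 4 male controls. The male Atp6v1b1Cre groups, injured and control, each mixed libraries of the first series and a later one. With the series as a covariate 5 and 11 members were called after ischemia and volume depletion in Hoxb7Cre. The share of all genes called with that covariate is not given here, so these counts cannot be set against it.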

How the data were processed

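RNA-seq libraries of pulldown and total kidney RNA (69 in all) were made by poly(A) selection and TruSeq preparation and sequenced on a HiSeq 2000. The submitters' processing notes name CASAVA 1.8.2, Trimmomatic 0.36, STAR 2.5.3a, HTSeq 0.6.1p2 and mm10. HTSeq was run at its default settings, which count by strand. The gene annotation, and whether the kit marked strand, are not given in the sources used here. The authors deposited a table of unnormalized read counts, 1 row per gene. Genes with at least 2 counts over all libraries were tested, with TMM scaling and edgeR 4.0.16 quasi-likelihood fits in R 4.3.3, with Benjamini-Hochberg adjustment over all genes tested and thresholds of 0.05 for the adjusted p and 1 for the log2 fold change.

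Injury fits held the 22 male pulldowns of 5.5 months, the pulldown against total fits 42 control libraries with sex as a covariate, and the sex fits 32 control libraries of 5.5 months. In library order the control pulldowns match the 21 total RNA libraries in genotype, sex, age and series, so the same mice may have given both. The fits treat them as independent, and none paired them in that order. Total counts per library ranged from 12618062 to 30305464, which sets the counting error. The members and lists were chosen with earlier results of these data known. Members were named by rule if called in an injury comparison with a mean of at least 10 counts, if among the 3 highest or 3 lowest fold changes of their family in the other comparisons, or if among the 3 highest levels per length. Any further member was chosen after its values were seen. Alternatives were DESeq2 1.42.0, its size factors, other filters, a replicate block, both sexes or 1 sex, the library series, and leaving out each library. The edgeR procedure was tested on simulated data. Positions are from GENCODE M21 (GRCm38) and promoters from RefSeq (GRCm38.p6).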

Additional observations from a re-analysis of the deposited data

Results flagged for a closer look

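In 6 of the 96 sets of a named member and a group of 4 to 8 libraries, 1 library stood apart from the others by Dixon's test, where chance gives about 1 in 20. Ces1g was at 4.01 CPM in ischemia replicate 7 of the Hoxb7Cre males, the other 3 being at 0.689 to 1.21. Gsta1 was at 0.691 CPM in control replicate 4 of the Hoxb7Cre males, the others at 0 to 0.0969. Ugt2b37 was at 7.41 CPM in ischemia replicate 6 of the Hoxb7Cre males (others 3.06 to 3.71) and at 2.32 CPM in volume depletion replicate 2 of the Atp6v1b1Cre males (others 6.83 to 7.08). Among females, Gsta4 was at 317 CPM in Total replicate 1 (others 135 to 212) and Ugt1a1 at 28.2 CPM in Total replicate 5 (others 5.36 to 15.9).

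A further 8 results were effects that differed between groups by a test of the difference itself, with edgeR. Between the drivers, the response to ischemia differed for Gstm2 (1.25), Gstm4 (1.32) and Sult2b1 (2.1), and the response to volume depletion for Ces2b (3.63) and Sult2b1 (2.41), all on the log2 scale. Between pulldown and total RNA, the male against female difference differed for Ugt1a2 (3.45), Gsta4 (1.14) and Ces2b (-2.12).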

How the results depend on the processing

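Of 169 calls of members with a mean of at least 10 counts over the 14 comparisons, 137 were kept whichever library was left out, and 9 changed sign under an alternative. Without the fold threshold, 7 and 12 members passed after ischemia and volume depletion in Hoxb7Cre, 9 after volume depletion in Atp6v1b1Cre, 8 between the drivers, 30 between the sexes in total RNA and 5 for the change of the sex difference. Libraries with the same replicate number did not deviate together (mean r from -0.468 to 0.214). Control pulldowns and total RNA libraries match by their order rather than by that number, so the check cannot show whether they shared mice. With a replicate block, by the same number, the counts were 4 and 2 (Hoxb7Cre), 0 (Atp6v1b1Cre ischemia), 2 (between drivers) and 0 and 0 (driver differences). With both sexes they were 1 and 3 in Hoxb7Cre, 8 for Atp6v1b1Cre volume depletion, 6 for Hoxb7Cre ischemia against volume depletion, and 1 and 0 for the driver differences. Among females alone they were 1 for Hoxb7Cre volume depletion, 1 for Atp6v1b1Cre ischemia, 2 for Hoxb7Cre ischemia against volume depletion, 0 and 0 for the driver differences and 2 between the drivers, where males alone gave 3 and filterByExpr 2. In the fits with a count of 0, 7 to 11 members had an unadjusted p under 0.05 (edgeR). With the library series as a covariate, 5 and 11 were called in Hoxb7Cre, and DESeq2 called 5 for the driver difference after volume depletion. Shares of all genes are not given for these alternatives or for the fits below without 1 library. The counts therefore show only how the calls moved.

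With 1 library left out, the counts ran from 2 to 3 and 3 to 10 in Hoxb7Cre (ischemia, volume depletion), 2 to 10 and 5 to 7 in Atp6v1b1Cre, 7 to 12 and 10 to 16 for ischemia against volume depletion (Hoxb7Cre, Atp6v1b1Cre), 1 to 6 and 1 to 4 for the driver differences, 48 to 53 and 51 to 53 against total RNA, 3 to 5 between the drivers, and 18 to 22, 14 to 17 and 2 to 4 for the sexes (total RNA, pulldown, their difference). The count was 3 for Hoxb7Cre volume depletion without control replicate 3, 2 for Atp6v1b1Cre ischemia without ischemia replicate 1, and 1 for the driver difference after ischemia without Hoxb7Cre control replicate 3.

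Signs turned among females alone for 9 calls, none of them significant there: Sult2b1 (0.62, Hoxb7Cre ischemia), Ugt1a1 (-0.06, Hoxb7Cre volume depletion), Ugt2b37 (1.14, Atp6v1b1Cre ischemia), Gstt3 and Sult1b1 (0.06 and -0.23, Hoxb7Cre ischemia against volume depletion), Gstm1, Ugt2b37 and Gsta2 (-0.16, 0.29 and -0.46, the same in Atp6v1b1Cre) and Gstm2 (-0.16, driver difference after ischemia). The cause was not tested. Members under 10 counts are limited by depth, and in groups of 3 or 4 libraries 1 library can carry a call.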

Other observations

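Members of the Ugt loci were missing or low in single total RNA libraries, and in control pulldowns that match these in order, in which their relatives were present. Ugt2b38 was at 2.94 CPM in male Total replicate 10, where the other males of 5.5 months had 454 CPM or more, and at 0 and 0.565 CPM in female Total replicates 6 and 5. Ugt1a9 was at 0.125 CPM in male Total replicate 9 and 0.525 CPM in female Total replicate 6, and Ugt1a10 at 1.44 and 20.8 CPM in the same 2 libraries. Among control pulldowns Ugt2b38 was at 0.254 CPM in male Atp6v1b1Cre replicate 10 and at 0 in female Atp6v1b1Cre replicates 7 and 8. Ugt1a9 was at 0.0937 CPM in male Hoxb7Cre replicate 5 and 0.438 CPM in female Atp6v1b1Cre replicate 8. Ugt1a10 was at 0.375 and 7.09 CPM in the same 2 pulldowns. Low values also occurred in Atp6v1b1Cre pulldowns after injury. Ugt2b38 was at 0 in an ischemic male and at 0.0958 CPM in a volume depleted female. Ugt1a9 was at 0.154 and 0.207 CPM in 2 ischemic females. A volume depleted male had 0.0639 CPM of Ugt1a9 and 0.448 CPM of Ugt1a10. Whether the control pulldowns and total RNA libraries came from the same mice was not tested.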
